A study of Mus musculus with 45 samples.

Results

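Transcripts of 8 transcription factors that work in the growing mouse oocyte were examined in fully grown oocytes (FGOs) and in two-cell embryos. The factors were Nobox, Figla, Sohlh1, Sohlh2, Lhx8, Taf4b, Tbpl2 and Foxo3. The members were chosen by gene symbol, and all 8 were among the 26214 genes of the deposited table of TPM (transcripts per 1000000, a read share corrected for gene length). Control females were H3f3b K36M-flox/+ and K36M females were H3f3b K36M-flox/+; Gdf9-Cre, so both groups carried the conditional allele, in which the H3.3 locus H3f3b can express H3.3 with lysine 36 replaced by methionine and an HA tag. The Cre gene was driven by the promoter of Gdf9, which is active in oocytes. In FGOs H3.3K36M lowers dimethylation of lysine 36 of histone H3, with little effect on its trimethylation. These marks were measured in the paper and not here. FGOs came from females of 3 to 4 weeks of age on a C57BL/6 J;129 background, and each library was made from 5 FGOs (3 control and 3 K36M libraries). For the embryos, control or K36M females were superovulated with HyperOva and hCG. Oocytes from their oviducts were fertilized in vitro with JF-1 sperm. Each library was 1 late two-cell embryo taken 31 to 32 h after fertilization. The report uses 7 control and 8 K36M oocyte-derived embryos, because the study set control embryo 4 aside for a technical problem. Per the paper, offspring of K36M females and wild-type males should be either H3f3b +/+ or H3f3b K36M/+. Embryos called K36M are therefore named by the genotype of the mother, and the labels do not give that of the embryo.

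These factors act in sequence in the female germ line. SOHLH1 and SOHLH2 (basic helix-loop-helix proteins), FIGLA (a basic helix-loop-helix protein that activates the zona pellucida genes), NOBOX (a homeobox protein) and LHX8 (a LIM-homeobox protein) are needed for primordial follicles to form or to start growing, and they bind short DNA words, E-boxes in the case of the helix-loop-helix proteins. TBPL2 takes the place of the TATA-binding protein TBP in growing oocytes, TAF4B is a gonad-enriched version of the TFIID subunit TAF4, and FOXO3 holds primordial follicles dormant until AKT signalling moves it out of the nucleus. In the FGO transcription has largely stopped, and much of the stored maternal mRNA is degraded before and during the two-cell stage, when the embryo's own genome is switched on.

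The libraries carried the marks of their labels. All 10 oocyte markers (Gdf9, Zp3 and others) had a mean of at least 1 TPM in every group, and their summed TPM was 17613 to 20655 in FGOs and 1277 to 4694 in embryos. The summed TPM of 8 two-cell zygotic markers (Zscan4c, Zfp352 and others) was 34.5 to 73.9 in FGOs and 270.4 to 2440.0 in embryos. K36M embryos held fewer detected genes than control embryos, with 10894 to 14879 genes above 0 (median 12994) against 12115 to 17329 (median 14786). FGO libraries held 16707 to 18559. Summed TPM of 13 granulosa cell markers was 104 to 624 in embryos and 151 to 251 in FGOs, and none of them was at 0 in every library of a group. Mean Nr5a2 was 71.0 and 118 TPM in control and K36M FGOs, and 174 and 201 TPM in control and K36M embryos. Mean Cyp19a1 was 25.1 and 24.9 TPM in these FGOs and 0.803 and 1.06 TPM in these embryos. From FGO to embryo in control 5 of the 13 markers were higher and 8 lower. The list includes genes, such as Gja1, that other cells also use. How many reads lie behind a TPM value is unknown, and a 0 says only that the gene is listed at 0. The number of oocytes or embryos in a library was fixed, but for any other cells in it, as in any bulk RNA, fewer cells of a type and less RNA per cell cannot be told apart. TPM gives shares of a library, not amounts per oocyte or embryo. The labels do not say whether the libraries of a group came from separate females, so p-values measure the spread between these libraries.

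H3f3b itself was 307, 265 and 308 TPM in control FGOs and 399, 418 and 377 TPM in K36M FGOs. The groups did not overlap, as for 15.6% of all genes, with a log2 fold change of 0.44 ± 0.086 (SE) and an adjusted p of 0.281 by limma. TPM adds the reads of both alleles, so this value does not check the genotype.

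In control FGOs the 8 mRNAs ranged from among the most abundant in the table to near 0. Nobox, on chromosome 6 (GRCm38.p6, 43303674 to 43310072, minus strand), stood at 924, 854 and 896 TPM, rank 103 of all genes by mean TPM. Foxo3 (chromosome 10, 42181845 to 42276695, minus strand) followed with 406, 399 and 382 TPM. Lhx8 (chromosome 3, 154306288 to 154330560, minus strand) had 210.3, 219 and 192 TPM. These 3 genes were each above 96.0% of all genes, and no library of one overlapped a library of the next.

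Figla (chromosome 6, 86016494 to 86020996, plus strand) came next at 108, 96.0 and 125 TPM. Tbpl2 (chromosome 2, 24071366 to 24096595, minus strand) was at 35.3, 27.1 and 43.6 TPM. Taf4b had 29.4, 27.8 and 34.2 TPM. Tbpl2 and Taf4b overlapped and their order is not separated by the spread between libraries, while both stayed below every Figla value. The earliest acting pair was lowest. Sohlh2 (chromosome 3, 55182044 to 55209957, plus strand) had 6.34, 5.09 and 9.58 TPM. Sohlh1 (chromosome 2, 25842995 to 25847248, minus strand) was listed at 1.61, 0 and 0.836 TPM, and 45.5% of all genes had a lower mean. Of the 8, Taf4b and Foxo3 overlap other RefSeq genes on the chromosome, none of which is in the table.

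**Figure D1:**
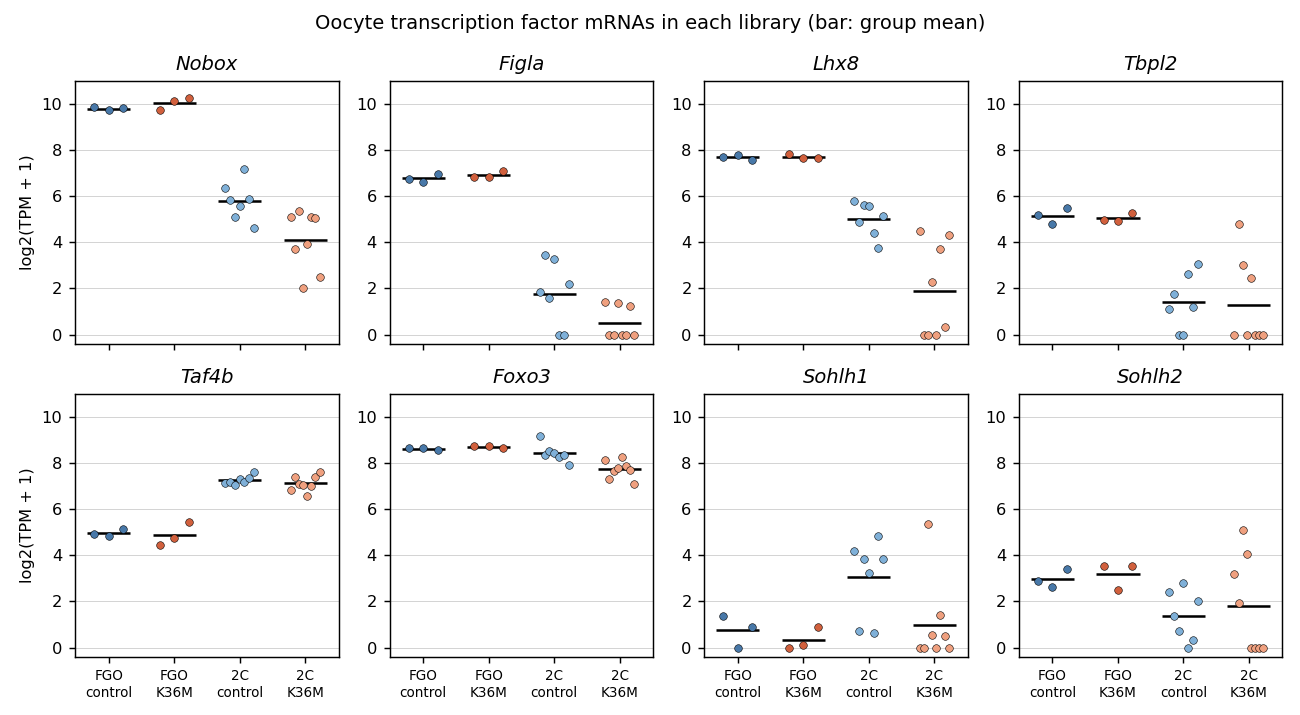
Each point is 1 library (FGO, pools of 5 oocytes, 3 control and 3 K36M; 2C, single two-cell embryos, 7 control and 8 K36M), on log2(TPM + 1), and each bar is the group mean. Nobox, Figla, Lhx8 and Tbpl2 are lower and Taf4b is higher in embryos than in FGOs, and Lhx8 spreads from 0 to 21.8 TPM in K36M embryos.

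The sequence before each start site was read from RefSeq (GRCm38.p6) for 7 of the 8 genes. E-boxes (the letters CANNTG, which read alike on both strands) were counted in the 250 bases before the start, and 66.2% of 32851 such windows held at least 1. Sohlh1 had 5, a number reached by 1.15% of windows, and Tbpl2 had 4, reached by 3.84%. Nobox and Figla had 2 each, Sohlh2 had 1, and Lhx8 and Foxo3 had none. The E-box CACCTG (or CAGGTG on the other strand), a subset of the former, was found in the windows of Nobox, Figla, Sohlh1 and Tbpl2, 4 of 7 members, against 17.2% of all windows. The windows of Sohlh1, Tbpl2 and Lhx8 are shown in full, 5′ to 3′ and ending at the base before the start, because they span the range from 5 E-boxes to none. E-boxes are in capitals.
Sohlh1, chr2:25847249-25847498, minus strand: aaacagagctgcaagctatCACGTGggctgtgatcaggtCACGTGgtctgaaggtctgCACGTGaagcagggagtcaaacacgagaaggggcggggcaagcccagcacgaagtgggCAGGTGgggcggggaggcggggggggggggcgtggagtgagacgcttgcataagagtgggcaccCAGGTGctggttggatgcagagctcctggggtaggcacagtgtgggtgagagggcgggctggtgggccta
Tbpl2, chr2:24096596-24096845, minus strand: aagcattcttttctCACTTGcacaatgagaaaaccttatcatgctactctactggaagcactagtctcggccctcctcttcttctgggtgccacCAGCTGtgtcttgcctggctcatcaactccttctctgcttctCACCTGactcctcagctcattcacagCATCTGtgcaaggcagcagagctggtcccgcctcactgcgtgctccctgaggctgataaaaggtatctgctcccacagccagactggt
Lhx8, chr3:154330561-154330810, minus strand: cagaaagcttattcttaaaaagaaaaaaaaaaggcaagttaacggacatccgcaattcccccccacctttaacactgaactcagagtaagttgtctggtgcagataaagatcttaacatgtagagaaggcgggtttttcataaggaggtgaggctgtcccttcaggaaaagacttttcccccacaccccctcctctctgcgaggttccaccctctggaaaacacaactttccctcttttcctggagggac
The Nobox window lies wholly, and the Figla window in part, inside an exon of a predicted transcript, so for these genes the E-boxes are shown with short flanks.
Nobox, farther E-box, chr6:43309676-43309701, minus strand: gcccccacccCAGGTGtgcggtgcct
Nobox, nearer E-box, chr6:43309589-43309614, minus strand: agactccacaCACCTGgccaccccac
Figla, both E-boxes, chr6:86017011-86017039, plus strand: tcgcactCAGGTGcgtCAAGTGtgtcaca
The first base of these E-boxes lay 137 and 50 bases before the Nobox start and 173 and 164 bases before the Figla start.

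The homeobox words TAATTG and TAATTA, the TATA word TATAAA and the forkhead word TAAACA, searched on both strands, were in none of the 7 windows. In all windows they occurred in 11.3%, 12.4% and 12.0%. The Foxo3 window was the richest of the 7 in CpG, with 31 against a median of 6 over all windows, a count that 5.19% of windows reach. Matches are letters only and no binding was measured.

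K36M FGOs were compared with control FGOs to ask whether the mutant histone changed these mRNAs while they were still stored in the oocyte. No member passed an adjusted p of 0.05 by limma on log2(TPM + 1), where 0.00726% of 13775 genes did (1 gene), and none of the 7 tested members had an unadjusted p under 0.05, against 10.5% of all genes. The paper's own count test with edgeR called more genes between these FGO groups at the same threshold. Sohlh1 was below a mean of 1 TPM and was not tested. Its K36M values were 0, 0.0641 and 0.829 TPM, inside the control range.

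Nobox had 843, 1135 and 1240.2 TPM in K36M FGOs, with 1 library below and 2 above all control libraries. Its log2 fold change was 0.25 (95% interval −0.042 to 0.54, adjusted p = 0.527 by limma). The value passed in 1 setting, without K36M FGO library 1 (0.41, adjusted p = 0.0353, range of adjusted p over all alternatives 0.0353 to 0.827). In that setting 300 genes passed, against 1 with all libraries. The summed TPM of the 13 granulosa cell markers was 151, 162 and 177 in control FGOs and 155, 227 and 251 in K36M FGO libraries 1, 2 and 3, so the 2 libraries with the highest Nobox also had the highest sums. Among them Nr5a2 had 67.1 to 77.1 TPM in control FGOs and 72.6, 140.0 and 140.8 TPM (lowest, median, highest) in K36M FGOs. Mean Cyp19a1 (25.1 and 24.9 TPM) and mean Gja1 (24.1 and 24.0 TPM) were close in control and K36M. Of the 11 markers tested 6 were higher and 5 lower in K36M FGOs. The part of these markers in the Nobox value and in those of the other members and lists was not tested.

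Lhx8 (225, 201 and 203 TPM) and Foxo3 (424, 430.3 and 402 TPM) had the narrowest intervals. The log2 fold change was 0.018 for Lhx8 (−0.18 to 0.22) and 0.082 for Foxo3 (−0.074 to 0.24). Figla had 112, 114 and 136 TPM, a log2 fold change of 0.14 (−0.14 to 0.43). For these 3 mRNAs the intervals leave out a change of 0.5 on the log2 scale in either direction.

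The other members were less precise. Tbpl2 had 30.2, 29.0 and 37.1 TPM in K36M FGOs, with a log2 fold change of −0.12 (−0.55 to 0.32). Taf4b had 20.6, 26.0 and 42.8 TPM and a log2 fold change of −0.089 (−0.65 to 0.47), its K36M libraries lying on both sides of the controls. Sohlh2 had 10.6, 4.71 and 10.7 TPM and a log2 fold change of 0.24 (−0.56 to 1.04).

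Genes reported as targets of NOBOX, FIGLA, LHX8 or TBPL2 were described beside the factors. Of 15 such genes none passed the adjusted test in FGOs. The K36M mean was lower for 11 and higher for 4, and at an unadjusted p under 0.05 7 were lower and 2 higher, where 5.34% of all genes were lower and 5.15% higher. The median log2 fold change was −0.17 over the list, 0.082 over the tested factors and 0.013 over all genes. Padi6, of the cytoplasmic lattices of the oocyte, went from 3927 ± 183 TPM in control to 3434 ± 72.5 TPM in K36M FGOs (n = 3 each, SD) with a log2 fold change of −0.19 (adjusted p = 0.383 by limma). Nlrp14 had −0.34 (adjusted p = 0.365 by limma) and Zp3, a zona pellucida protein, −0.17 (adjusted p = 0.435 by limma). Gdf9, the oocyte growth factor whose promoter drives the Cre, had −0.017 (adjusted p = 0.937 by limma). The summed TPM of the oocyte markers, 8 of which are on this list, was lower in every K36M FGO library (17613 to 19195) than in every control FGO library (20204 to 20655), and its part in the list's values was not tested.

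Two-cell embryos from K36M oocytes were then compared with those from control oocytes. Again no member passed the adjusted test by limma, and 0.0% of 17362 genes did. With an unadjusted p under 0.05, Lhx8, Nobox, Foxo3 and Sohlh1 were lower in K36M embryos, 4 of 8 members, where 6.5% of all genes were lower and 1.2% higher. The median log2 fold change was −0.99 over the members and −0.26 over all genes. After quantile normalization the median of all genes was −0.013 and the unadjusted calls over all genes split into 400 higher and 645 lower, against 209 and 1129 before it.

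Lhx8 had the largest fold change of the members. In control embryos it had a lowest, median and highest value of 12.5, 34.8 and 55.0 TPM, and in K36M embryos 0, 2.06 and 21.8 TPM. In 6 of 8 K36M embryos it was below the lowest control embryo, and in 3 it was listed at 0. The log2 fold change was −3.13 ± 0.82 (SE; unadjusted p = 0.000897, adjusted p = 0.377, limma), and 0.219% of all genes had a lower value. A two-sided exact permutation test over the embryos gave p = 0.00326. Under quantile normalization the log2 fold change was −2.97, and over all alternatives the adjusted p ranged from 0.117 to 0.643. The 3 embryos that listed Lhx8 at 0 had 10894, 14201 and 12554 genes above 0. The median was 12994 in K36M embryos and 14786 in control embryos. The part of the number of detected genes in the Lhx8 values was not tested.

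Nobox had 23.9, 56.1 and 144 TPM (lowest, median, highest) in control embryos and 3.11, 23.4 and 40.1 TPM in K36M embryos. Of the K36M embryos 4 of 8 fell below the lowest control. The log2 fold change was −1.69 ± 0.58 (SE; unadjusted p = 0.00784, adjusted p = 0.556, limma) with an exact permutation p of 0.00948. With quantile normalization it was −1.33.

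Foxo3 had 245, 329 and 580.1 TPM in control embryos and 134, 215 and 311 TPM in K36M embryos, 6 of 8 of which were below the lowest control. Its log2 fold change was smaller and more precise, −0.71 ± 0.24 (SE; unadjusted p = 0.00731, adjusted p = 0.556, limma; exact permutation p = 0.00264). Of all genes 28.7% had a lower value, and the median over all genes was −0.26. Over all alternatives the Foxo3 value ranged from −0.80 to −0.59. The other FOXO genes were described with Foxo3. Foxo1, another AKT-regulated forkhead factor, had 97.7, 138 and 193 TPM in control embryos and 6.25, 56.9 and 89.3 TPM in K36M embryos, with no overlap, as for 0.115% of all genes. Its log2 fold change was −1.71 (unadjusted p = 0.00159, adjusted p = 0.395, limma). Foxo6 had −1.99 (adjusted p = 0.603) and Foxo4 −0.30 (adjusted p = 0.925). In FGOs Foxo1 had 0.19, Foxo6 0.18 and Foxo4 −0.21, and none of the 3 passed the adjusted test.

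Sohlh1 was uneven among embryos. Control embryos had 0.536, 13.1 and 27.6 TPM (lowest, median, highest) and K36M embryos 0, 0.202 and 40.3 TPM. In K36M embryos 6 of 8 were below every control and 1 was above every control. The log2 fold change was −2.07 ± 0.91 (SE; unadjusted p = 0.0329, adjusted p = 0.603, limma; exact permutation p = 0.0482). Over the alternatives the log2 fold change ranged from −3.75 to −1.69.

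The remaining members did not reach an unadjusted p of 0.05 by limma. Figla was 0, 2.64 and 9.83 TPM in control and 0, 0 and 1.62 TPM in K36M embryos, listed at 0 in 2 of 7 and 5 of 8, with a log2 fold change of −1.27 (−2.62 to 0.090; exact permutation p = 0.0395). It was −0.59 under quantile normalization and −2.42 with a pseudocount of 0.1. Taf4b was 132, 145 and 198 TPM in control and 94.99, 133 and 198 TPM in K36M embryos, with a log2 fold change of −0.14 (−0.68 to 0.39). Tbpl2 had −0.11 (−1.81 to 1.598) and Sohlh2 0.41 (−1.40 to 2.22), intervals too wide to show whether either differed. The sign of Tbpl2 and Sohlh2 turned in other settings, Tbpl2 to 0.21 under quantile normalization and Sohlh2 to −0.22 with a pseudocount of 0.1.

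The 15 reported targets were also described between the embryo groups, where none passed the adjusted test by limma. The K36M mean was lower for 11 and higher for 4, and at an unadjusted p under 0.05 1 was lower and 2 higher, where 6.5% of all genes were lower and 1.2% higher. The median log2 fold change was −0.32 over the targets, −0.99 over the members and −0.26 over all genes.

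**Figure D2:**
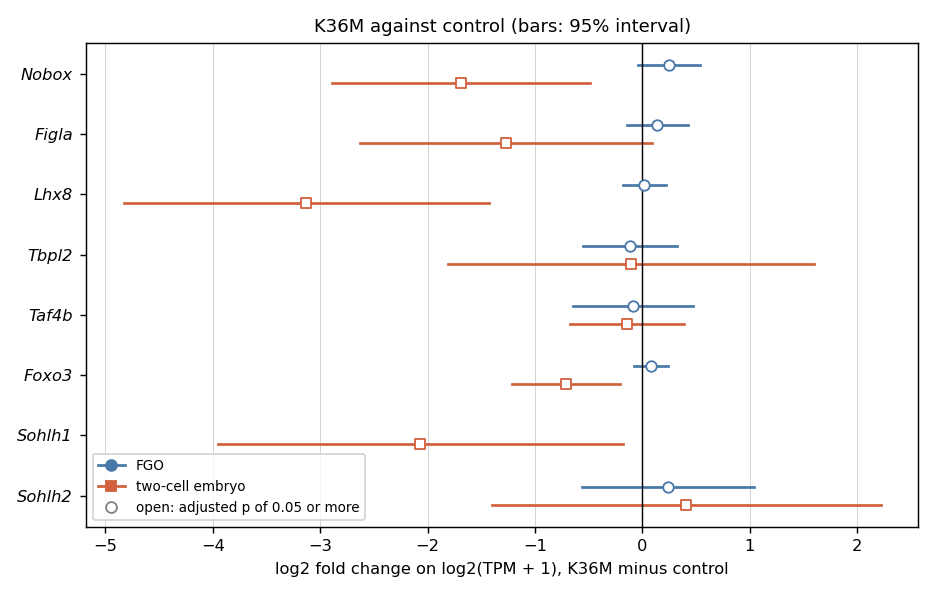
Log2 fold change (K36M minus control, on log2(TPM + 1)) with 95% intervals from limma, for FGOs (circles, 3 against 3 libraries) and two-cell embryos (squares, 8 against 7). All markers are open because no adjusted p is under 0.05, and Sohlh1 has no FGO value because it was below 1 TPM.

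Whether the K36M effect differed between the stages was tested as an interaction over 21 libraries. No member and 0.0% of 17358 genes passed the adjusted test by limma (adjusted p of 1.00 for each member). With an unadjusted p under 0.05 the effect was lower in embryos than in FGOs for 0.939% of all genes and for 3 members. These were Lhx8, with a difference of log2 fold changes of −3.15 ± 1.26 (SE), Nobox with −1.94 ± 0.87 and Foxo3 with −0.80 ± 0.36. Their unadjusted p by limma was 0.0194, 0.0358 and 0.0353. The median over all genes was −0.27, and −0.022 with quantile normalization. The values of the other members were −1.41 for Figla, −1.63 for Sohlh1, 0.17 for Sohlh2, −0.053 for Taf4b and 0.0086 for Tbpl2.

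Two-cell embryos were next compared with FGOs within each genotype. In controls Nobox, Figla, Lhx8 and Tbpl2 fell and Taf4b rose, 5 of 8 members past an adjusted p of 0.05 by limma, where 15.5% of 16914 genes were called lower and 15.0% higher. In K36M the same 5 passed in the same direction and Foxo3 was also lower, 6 of 8, where 15.4% of 16677 genes were called lower and 9.86% higher. No library is shared between these 2 comparisons. Each compares pools of 5 ovarian oocytes with single hybrid embryos from superovulated females. Stage, hormone treatment, cross, library type and number of PCR cycles therefore cannot be told apart.

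Figla fell furthest in both. Its log2 fold change was −5.01 ± 0.83 (SE, adjusted p = 0.000618, limma) in control, from at least 96.0 TPM in every FGO library to at most 9.83 TPM in any embryo, and −6.42 ± 0.69 (adjusted p = 1.7e-05, limma) in K36M. In K36M 0.108% of all genes had a lower value, and in control 0.461%.

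Nobox fell by 4.01 ± 0.45 (SE) on the log2 scale in control (adjusted p = 2.84e-05, limma) and by 5.95 ± 0.71 in K36M (adjusted p = 3.86e-05, limma). It still had 23.9 TPM or more in every control embryo. Lhx8 fell by 2.67 ± 0.45 in control (adjusted p = 0.000655, limma) and it fell by 5.82 ± 1.13 in K36M (adjusted p = 0.00179, limma). For both genes, and for Figla and Tbpl2, all embryos were below all FGO libraries of their genotype, a lack of overlap shown in this direction by 18.2% of all genes in control and 16.9% in K36M.

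Tbpl2 fell by 3.77 ± 0.80 in control (adjusted p = 0.00327, limma) and by 3.76 ± 1.09 in K36M (adjusted p = 0.0213, limma). It was listed at 0 in 2 of 7 control and 5 of 8 K36M embryos, and the highest embryo value was 26.8 TPM in K36M. The K36M call was lost when any K36M FGO library was left out, with adjusted p of 0.0827 to 0.0963.

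Taf4b was the only member called higher. From 27.8 to 34.2 TPM in control FGOs it reached 132 to 198 TPM in control embryos, a log2 fold change of 2.29 ± 0.25 (SE, adjusted p = 2.79e-05, limma). In K36M it went from 20.6 to 42.8 TPM to 94.99 to 198 TPM (2.24 ± 0.35, adjusted p = 0.000343, limma). In both genotypes every embryo was above every FGO library, as for 14.5% of all genes in control and 9.41% in K36M.

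Foxo3 kept a high level in embryos. In control it went from 382 to 406 TPM in FGOs to 245 to 580.1 TPM in embryos, with a log2 fold change of −0.19 (−0.70 to 0.33, adjusted p = 0.583, limma). In K36M every embryo was below every FGO library and the log2 fold change was −0.98 ± 0.27 (SE, adjusted p = 0.0145, limma). That call was lost without any 1 of the K36M FGO libraries (adjusted p 0.0609 to 0.0732) and without the mean-variance trend (adjusted p = 0.0863). The difference between the genotypes is the interaction given above, which did not pass.

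Sohlh1 and Sohlh2 were not called in either genotype. Sohlh1 had a log2 fold change of 2.29 in control (0.14 to 4.44, adjusted p = 0.101, limma) and 0.66 in K36M (−1.49 to 2.81). In 5 of 7 control embryos it was above every control FGO library. It passed in control in 4 of the 20 alternatives, without control embryo 2 (adjusted p = 0.0493) and without control embryo 6 (0.0321) among them, and its adjusted p ranged from 0.0216 to 0.321. Sohlh2 passed in control in 1 alternative, with array weights (adjusted p = 0.0375). Its log2 fold change was −1.59 in control (−3.23 to 0.056) and −1.42 in K36M (−3.96 to 1.13).

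**Figure D3:**
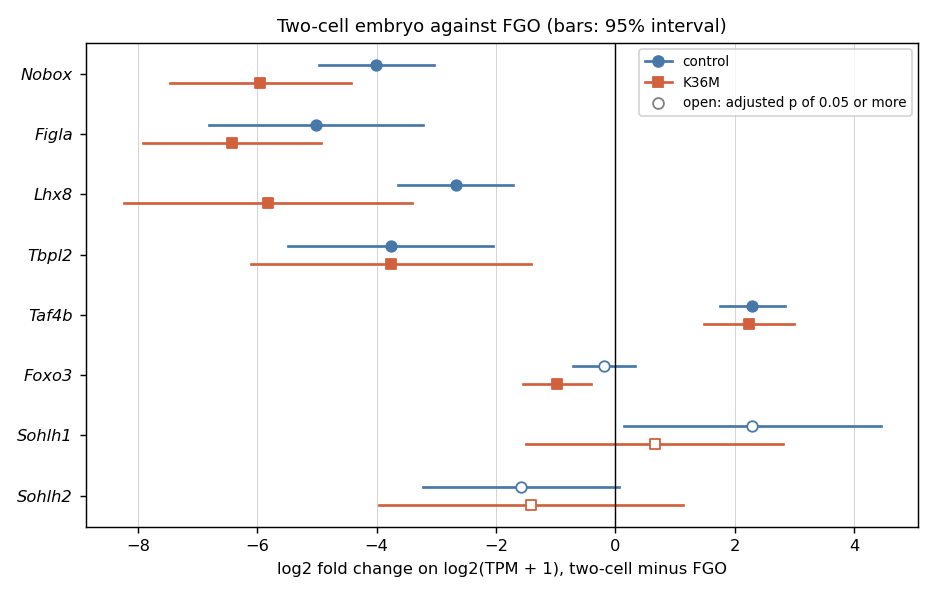
Log2 fold change (two-cell embryo minus FGO, on log2(TPM + 1)) with 95% intervals from limma, for control (circles, 7 against 3 libraries) and K36M (squares, 8 against 3). Filled markers have an adjusted p under 0.05: Nobox, Figla, Lhx8 and Tbpl2 are lower and Taf4b is higher in both, and Foxo3 is lower in K36M.

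The order of the mRNAs differed in embryos. In control embryos the medians ran from Foxo3 (329 TPM) over Taf4b (145 TPM), Nobox (56.1 TPM), Lhx8 (34.8 TPM), Sohlh1 (13.1 TPM), Figla (2.64 TPM) and Sohlh2 (1.59 TPM) to Tbpl2 (1.30 TPM). Foxo3 did not overlap Taf4b, and every later neighbour overlapped the one before it. In K36M embryos Foxo3 (215 TPM) and Taf4b (133 TPM) overlapped and still stood above every Nobox value.

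Most reported targets were also lower in embryos. Of the 15 target genes 12 were called lower and 0 higher in each genotype, where 15.5% of all genes were called lower in control and 15.4% in K36M, with a median log2 fold change of −3.47 in control and −3.58 in K36M, against 0.076 and −0.16 over all genes. Nlrp5, a subcortical maternal complex protein, fell by 3.47 in control and 3.07 in K36M. Padi6 fell by 3.98 and 4.18, and Nlrp14 by 3.59 and 3.58.

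TBPL2 and TAF4B work inside the general transcription machinery, so their partners were described next. Of 20 TFIID, TFIIA and TFIIB genes 6 were called higher and 3 lower in control, and 2 higher and 5 lower in K36M. Over all genes 15.0% were called higher and 15.5% lower in control, and 9.86% and 15.4% in K36M. The list's median was −0.0087 in control and 0.041 in K36M. Gtf2a1l, the germ-cell TFIIA subunit known to pair with TBPL2 in oocytes, fell by 5.603 in control (adjusted p = 0.000149, limma) and by 4.35 in K36M (adjusted p = 0.0283, limma). It went from 118 to 152 TPM in control FGOs to 0 to 9.14 TPM in control embryos, while Gtf2a1, the widely used TFIIA subunit, was higher by 1.07 in control (adjusted p = 0.00102, limma) and had 0.68 in K36M (adjusted p = 0.0711, limma). Taf9b fell by 2.40 and Gtf2b by 2.55 in control, and by 3.84 and 2.25 in K36M.

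Shares within each paralogue set were computed on the TPM scale. Tbpl2 made up a median of 13.5% of the TPM of Tbp, Tbpl1 and Tbpl2 in control FGOs (10.9 to 14.0%) and 0.729% in control embryos (0 to 15.9%). In K36M it was 11.6% (11.4 to 11.8%) and 0% (0 to 6.43%). The highest control embryo, 15.9%, had 5.17 TPM of Tbpl2. Taf4b made up 19.7% of Taf4 and Taf4b in control FGOs (17.8 to 25.2%) and 42.5% in control embryos (31.5 to 52.2%). In K36M it was 16.8% (12.9 to 23.5%) and 45.2% (38.0 to 62.3%), with no overlap between stages in either genotype. Foxo3 was 63.5% and 65.0% of the 4 FOXO genes in control FGOs and embryos, and 62.2% and 69.7% in K36M.

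**Figure D4:**
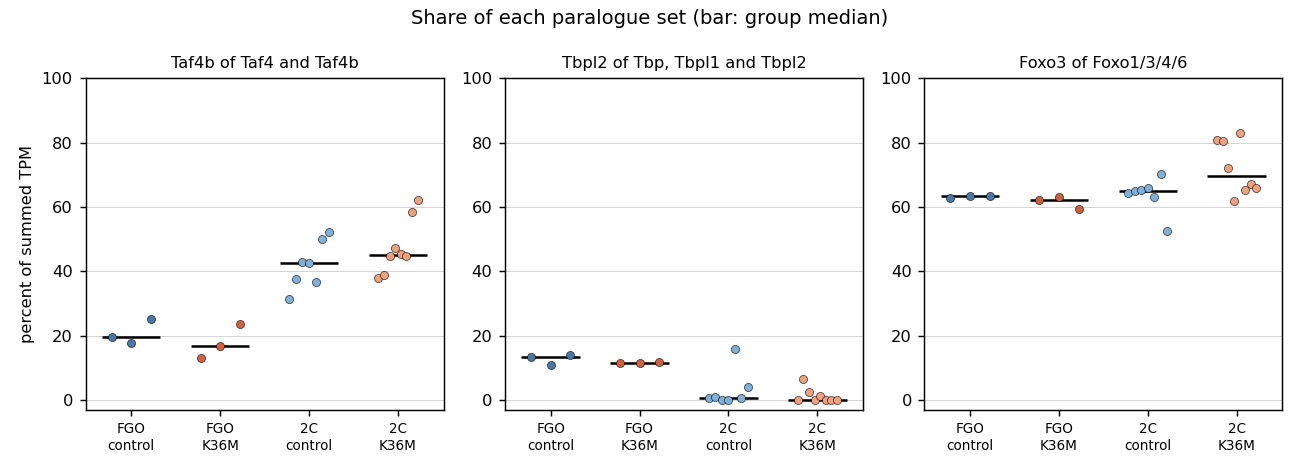
Percent of the summed TPM of each paralogue set taken by Taf4b, Tbpl2 and Foxo3, with 1 point per library and the group median as a bar. Taf4b shares are higher in every embryo than in every FGO library of its genotype, and Tbpl2 shares are at or near 0 in most embryos.

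Signalling genes upstream of FOXO3 were then described. Of 20 genes of the PI3K, AKT and mTOR pathway 7 were called higher and 1 lower from FGO to embryo in control, and 5 higher and 3 lower in K36M. The shares over all genes were 15.0% higher and 15.5% lower in control and 9.86% and 15.4% in K36M, so the 3 lower genes in K36M are near the background. Stk11 (the kinase LKB1) rose by 2.20 and 2.01 in control and K36M. Kit, the receptor for the granulosa cell ligand, fell by 1.37 in control (adjusted p = 0.0116, limma) and by 1.58 in K36M (adjusted p = 0.00673, limma). Of 10 reported FOXO3 targets 4 were called higher and 1 lower in control, and 2 higher and 1 lower in K36M, against the same shares of all genes. Gadd45a rose by 3.97 and 3.89 and Txnip fell by 3.87 and 4.26. In the genotype comparisons none of the 20 pathway genes or 10 targets passed the adjusted test at either stage, and 9 of the targets were tested in FGOs.

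The E proteins TCF3, TCF4 and TCF12 are the general partners of helix-loop-helix factors such as FIGLA and SOHLH1, and none of their 3 genes was called in any comparison. Of STAT3, SUB1 and DYNLL1, which have been used together with several of the members to induce oocyte-like growth, Sub1 fell by 1.38 and 1.68 and Dynll1 rose by 1.28 and 1.08 in control and K36M, and Stat3 fell by 1.17 in control (−1.22 in K36M, adjusted p = 0.175, limma). Of all genes 15.0% were called higher and 15.5% lower from FGO to embryo in control, and 9.86% and 15.4% in K36M. None of the 3 was called between genotypes.

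For each member the genes of most similar profile over the 21 libraries were sought among 17358 genes, by the root-mean-square difference of log2(TPM + 1) after removing each gene's mean. Foxo3 and Taf4b had the closest matches, Mllt10 at 0.25 and Zbtb10 at 0.30. Figla was nearest to H1f8, the oocyte linker histone, at 0.74, and H1f8 went from 4024 TPM (mean) in control FGOs to 124 TPM in control embryos. Nobox was nearest to Glmn at 0.84, Sohlh1 to Islr2 at 0.72, Sohlh2 to Tmem127 at 0.79, Tbpl2 to Bloc1s5 at 0.99 and Lhx8 to Spcs1 at 1.17. Lhx8 had the loosest match of the 8.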

How the data were processed

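RNA-seq libraries (SMART-Seq Stranded kit) were made from 6 pools of FGOs and 16 single two-cell embryos, and 21 of these 22 libraries were used. Per the paper's methods the authors trimmed reads with Trim Galore, mapped them to mm10 with Hisat2, removed ribosomal RNA reads with BEDTools, counted genes with featureCounts and deposited TPM values, which sum to 1000000 in each library. Annotation, gene lengths and strand setting behind the TPM are not given in the sources used here. Genes that overlap or have near-identical copies are therefore uncertain. The work on reads was not repeated, and no count test was run because TPM are not counts.

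The limma package (3.58.1, R 4.3.3) was run with lmFit and trended eBayes on log2(TPM + 1). Genes entered a fit when their average reached 1 TPM there, and p-values were adjusted by Benjamini-Hochberg over all genes that entered, with 0.05 as the threshold. Fold changes on this scale understate changes of low genes. FGOs, embryos and the 2 stage comparisons were fitted apart, and 1 fit tested the interaction. The script was tested on simulated data.

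The members, gene lists and tests were chosen with earlier results of these data known. All members are named in each comparison. For each list at most 4 genes are named, the called ones of smallest adjusted p, otherwise those of highest mean TPM. H3f3b is named as the targeted gene. Of 134 listed genes 1, Meiosin, was not found in the table.

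Alternatives were a pseudocount of 0.1, entry of all genes above 0 or of those averaging 5 TPM, scaling by quantiles or by median of ratios, an untrended fit, array weights, a block on replicate number, each library left out, control embryo 4 added and, for the stage comparisons, 1 fit over all libraries. Leaving out embryos in the stage and interaction fits, and the exact permutation tests, were added after seeing the data. Windows of 250 bases came from RefSeq (GRCm38.p6) and were checked against the genome with pysam 0.24.0 and samtools 1.23.1. Python 3.11.15, pandas 2.3.3, numpy 2.4.6 and matplotlib 3.10.9 were used for the rest. ChIP-seq, CUT&RUN and bisulfite samples of the series were not analysed here. Values of some listed signalling genes are not reported here.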

Additional observations from a re-analysis of the deposited data

Results flagged for a closer look

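Sohlh1 in K36M embryo 3 stood apart from the other 7 K36M embryos, at 40.3 TPM. The other K36M embryos had at most 1.69 TPM. The gap to the nearest embryo exceeded Dixon's 95% limit, a limit that chance passes in about 1 of 20 groups. With 16 such groups of embryos examined, 0.8 were expected by chance and 1 was found. The same embryo had the highest Sohlh2 value, 33.4 TPM, and listed Lhx8 at 0. Its summed TPM of 5 stroma markers (56.7) and of 6 blood markers (59.5) was also the highest of the 15 embryos, against 2.47 to 36.1 and 0 to 28.3 in the others. Dcn and Hbb-bt were at 0 in all K36M embryos. The part of these markers in the Sohlh1 value was not tested.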

How the results depend on the processing

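Of 845 alternatives computed for 39 fold changes of members, 782 kept the direction and the side of the threshold, 10 lost the call, 6 gained it and 47 changed sign, in 10 fold changes, none of which was called. The cause was not tested. The number of members called between genotypes in FGOs was 0 to 1 when libraries were left out. The replicate number as a block lowered the number of members called in the K36M stage comparison to 3 (Nobox, Figla and Taf4b, with an adjusted p of 0.0691 for Lhx8, 0.0843 for Foxo3 and 0.271 for Tbpl2) and changed no other count of members by over 1.5 times. The numbers do not pair the libraries, since same-numbered libraries correlated by 0.015 to 0.10 in FGOs and −0.10 to 0.097 in embryos. Under the block the log2 fold change was 0.076 for Tbpl2 between genotypes in embryos, 0.067 for Foxo3 in the control stage comparison, 0.20 for Sohlh2 in the K36M stage comparison and −0.16 for Sohlh2 in the interaction.

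Other sign changes, all of uncalled values, were as follows. In FGOs Lhx8 was −0.0029 with quantile normalization and −0.0089 with array weights. In embryos Sohlh2 was −0.22 with a pseudocount of 0.1, and Tbpl2 was 0.21 with quantile normalization and 0.067 with control embryo 4 added. In the interaction a pseudocount of 0.1 gave −0.48 for Sohlh2 and −0.84 for Tbpl2, and Taf4b was 0.097 with median-of-ratios scaling and 0.057 with control embryo 4 added. When each library was left out, FGO values ranged from −0.035 to 0.059 for Lhx8, −0.37 to 0.14 for Taf4b and −0.29 to 0.045 for Tbpl2. Embryo values ranged from −0.064 to 0.67 for Sohlh2 and −0.61 to 0.17 for Tbpl2, and interaction values from −0.30 to 0.43 for Sohlh2, −0.28 to 0.23 for Taf4b and −0.49 to 0.28 for Tbpl2.

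Over all genes, array weights raised the calls from 5159 to 9396 in the control and from 4217 to 8212 in the K36M stage comparison, and the block lowered the latter to 2385. Leaving out any 1 FGO library lowered the calls to 3015 to 3056 in control and 2342 to 2382 in K36M, so the shares of all genes called in the stage comparisons rest on all 3 FGO libraries of a genotype. Between genotypes in embryos 0 genes passed, 1338 had an unadjusted p under 0.05, and 5 passed without the trend, 1 with array weights and 1 without K36M embryo 8. In the interaction 0 passed, 199 had an unadjusted p under 0.05 (36 higher and 163 lower, or 71 and 108 with quantile normalization), and 13 passed over all genes above 0, 3 with array weights, 1 without the trend, and 2, 1 and 3 without control FGO library 1, control FGO library 2 and K36M FGO library 2. Array weights raised this unadjusted count of the interaction from 199 to 1781 (281 higher and 1500 lower). Without any 1 of the FGO libraries it was 107 to 157. The 0.939% of all genes set beside the members in the interaction therefore depends on the fit. TPM keeps no depth, so values near 0 in single embryos have an unknown precision.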

Other observations

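Factors of meiotic entry and early germ cell fate were described as a further list. From FGO to embryo 3 of 9 tested genes were called higher and 1 lower in control, where 15.0% of all genes were higher and 15.5% lower. In K36M 2 of 8 were called higher and 2 lower, where 9.86% and 15.4% of all genes were. Stra8, a factor of meiotic entry, was listed at 0 in all 3 control FGO libraries and at 5.11 to 52.2 TPM in control embryos (adjusted p = 0.00106, limma). In K36M it was listed at 0 in 2 of 3 FGO libraries and at 2.65 to 166 TPM in embryos (adjusted p = 0.00139, limma). Dazl, a germ cell RNA-binding protein, fell by 3.97 in control and 4.94 in K36M, and Zglp1 fell by 3.63 in K36M and had −2.47 in control (adjusted p = 0.110, limma). Of this list 5 genes were tested between genotypes in FGOs and 8 in embryos, and none was called.

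Control embryo 4, which the study set aside, was below all other control embryos for Taf4b (82.3 TPM), Foxo3 (203 TPM) and Sohlh1 (0 TPM), and inside their range for the other 5 members.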
